A study of Mus musculus with 6 samples.

Results

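The joining segments of the T cell receptor alpha chain are short stretches of coding DNA, named Traj with a number, that lie in a row upstream of the only alpha constant region, Trac, on mouse chromosome 14. Every row of the deposited table whose mouse symbol starts with Traj was taken, which gave 60 of the 19323 rows, and these were all 60 Traj entries of the annotation used. RNA came from splenic CD8+ T cells of wild-type C57BL/6 mice, aged 6 weeks at the start, which were fed either MCDHFD or ND for 7 weeks. The labels speak of MASH models, MASH being an inflammatory form of fatty liver disease, and do not spell out either diet name. There were 3 libraries per diet. The labels do not say whether a library is 1 mouse or a pool or whether replicates are separate animals. The spread that enters every p-value is that between these libraries, in part that of other genes, and it may be technical.

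In a developing T cell, 1 variable segment is joined to 1 joining segment by the RAG recombinase. The first joins tend to use segments at the 5′ end of the row, and repeated joins on the same allele move toward the 3′ end, next to Trac. The primary transcript then runs from the variable segment through the joined Traj, across the unused Traj segments downstream of it, to Trac, and splicing removes what lies between the joined Traj and Trac. The joined segment encodes the end of the antigen-contacting loop and the strand that follows it, around a Phe/Trp-Gly-X-Gly motif. The numbers run against the direction of transcription, so that Traj61 is the farthest from Trac and Traj1 the nearest. A table of gene totals does not tell reads of spliced chains from reads of unspliced transcripts.

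Each segment is shown 5′ to 3′ on the plus strand, from the GENCODE M21 transcripts on mm10, the build that the submitters' processing notes name. Shown are the 6 segments with enough signal for the main test and the segments of 2 invariant receptors, Traj18 of invariant NKT cells and Traj33 of MAIT cells. Capitals mark the 12 bases of the Phe/Trp-Gly-X-Gly motif where it was found in the reading frame that splices into Trac, and a sequence without capitals has no match.
Traj33: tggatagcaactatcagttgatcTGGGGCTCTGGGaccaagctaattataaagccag
Traj18: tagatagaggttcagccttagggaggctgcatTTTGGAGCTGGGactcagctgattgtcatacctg
Traj7: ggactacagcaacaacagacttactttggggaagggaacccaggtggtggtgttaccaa
Traj6: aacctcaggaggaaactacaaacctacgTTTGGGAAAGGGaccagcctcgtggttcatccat
Traj4: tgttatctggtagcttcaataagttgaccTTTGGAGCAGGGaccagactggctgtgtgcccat
Traj3: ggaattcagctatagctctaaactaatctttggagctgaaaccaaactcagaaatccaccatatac
Traj2: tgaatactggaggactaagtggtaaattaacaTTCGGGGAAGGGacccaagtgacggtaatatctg
Traj1: gtgtgcagatagctgctccatctttcctg

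In mm10, these segments are Traj33 (ENSMUSG00000076896) at chr14:54185358-54185414, Traj18 (ENSMUSG00000076911) at chr14:54200777-54200842, Traj7 (ENSMUSG00000076921) at chr14:54211470-54211528, Traj6 (ENSMUSG00000076922) at chr14:54212688-54212749, Traj4 (ENSMUSG00000076924) at chr14:54216291-54216353, Traj3 (ENSMUSG00000076925) at chr14:54217292-54217357, Traj2 (ENSMUSG00000076926) at chr14:54217836-54217901 and Traj1 (ENSMUSG00000076927) at chr14:54218814-54218842. Each is annotated as 1 exon of the receptor locus. GENCODE lists 51 of the 60 as joining genes and 9 as pseudogenes, among them Traj1. The motif was found in frame in 42 of the 51 genes and in 1 of the 9 pseudogenes, against 0.632% of 141515 windows of 60 bases taken from the start of all annotated transcripts (coding strand, 1 reading frame, in both). The segments are 29 to 72 bases long. No 2 of them share a stretch of more than 16 bases, so they are not near-identical copies.

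The joining segments as a group were 2.37-fold lower in MCDHFD than in ND. Their summed level was 149.6, 118.9 and 146.5 normalized counts in the MCDHFD libraries, against 327.9, 310.3 and 347.4 in the ND libraries, where a normalized count is a read count that the authors scaled per library. The diets did not overlap, and the highest MCDHFD sum lay well under the lowest ND sum. The means were 138 ± 16.9 in MCDHFD and 329 ± 18.5 in ND (SD, n = 3 each), a log2 ratio of -1.25. In bulk RNA, fewer T cells and less of this RNA per T cell cannot be told apart. No p is given for this sum, since the members were chosen with results of these data known.

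Trac (ENSMUSG00000076928, chr14:54220521-54224206 in mm10), the constant region to which every joined segment is spliced, moved by about as much. It had 3966, 3332 and 3451 normalized counts in MCDHFD, against 7984, 8423 and 8030.0 in ND, again with no overlap. Its log2 fold change was -1.19 (SE 0.07, limma adjusted p = 1.59e-06). The Traj sum was therefore 3.77%, 3.57% and 4.25% of the Trac value in the MCDHFD libraries, against 4.11%, 3.68% and 4.33% in the ND libraries, and here the diets overlapped. The means of this ratio were 3.86% ± 0.347 in MCDHFD and 4.04% ± 0.326 in ND (SD, n = 3 each). The alpha variable segments, which stand at the other end of the joined exon, gave the same picture: the Traj sum was 13.8% ± 1.56 of the summed Trav level in MCDHFD and 14.8% ± 0.969 in ND, with overlap.

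**Figure D1:**
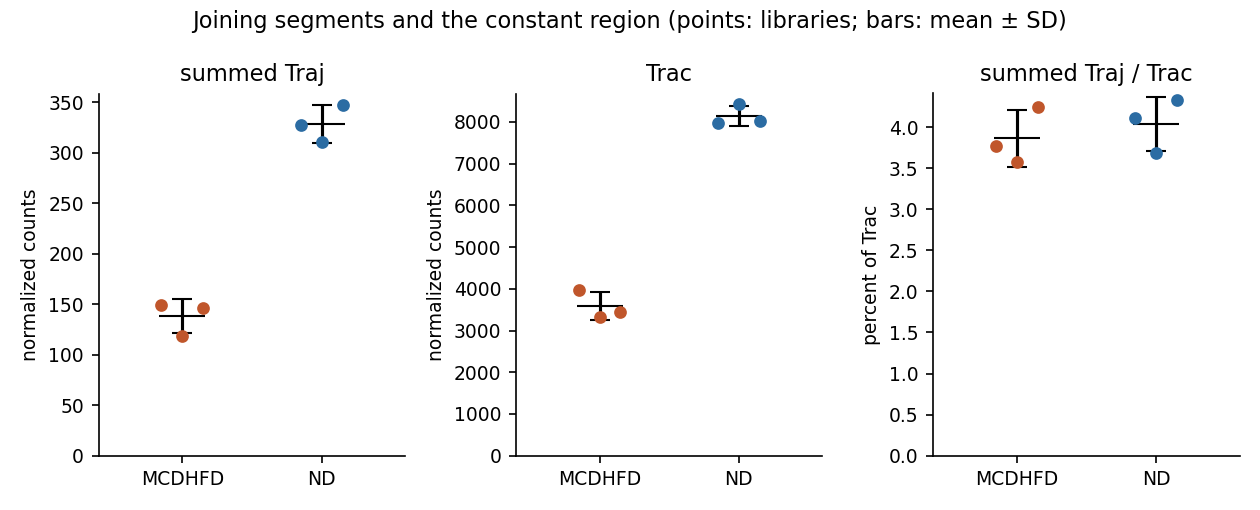
Summed level of the 60 Traj segments (left), level of Trac (middle), both in normalized counts, and the Traj sum as a percent of Trac (right), for MCDHFD and ND libraries; points are libraries and bars are mean ± SD. The sum and Trac lie lower in all MCDHFD libraries, while the ratio overlaps between 3.57% and 4.33%.

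Levels climbed along the locus toward Trac in both diets. In rank order over the 60 segments, the mean level fell with distance from Trac with a Spearman rho of -0.88 in MCDHFD and -0.95 in ND, and per 100 bases with -0.90 in MCDHFD and -0.96 in ND (a description over segments that share libraries, with no test). Length did not run along with the level in this way (rho -0.14 in ND), nor did GC content (rho 0.05 in ND). The row spans 65.5 kb, from Traj61 to a Traj1 that starts 1.71 kb before Trac. The 12 segments nearest Trac, within 14.8 kb, held 50.2% of the Traj sum in MCDHFD, and the 11 nearest, within 13.97 kb, held 51.1% in ND.

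Cut into 3 parts of 20 segments each, the 5′ part (Traj61 to Traj42) had a median of 1.11 normalized counts per 100 bases in MCDHFD and 1.55 in ND. The middle part (Traj41 to Traj22) had 2.27 in MCDHFD and 5.03 in ND. The 3′ part (Traj21 to Traj1) had 8.05 in MCDHFD and 18.3 in ND, which made it 7.24-fold the 5′ part in MCDHFD and 11.8-fold in ND. Even the 3′ part was far below Trac, which had 383 normalized counts per 100 exon bases in MCDHFD and 871 in ND. Levels per length are approximate for features this short, since neither the read length nor the way reads were assigned is known here.

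**Figure D2:**
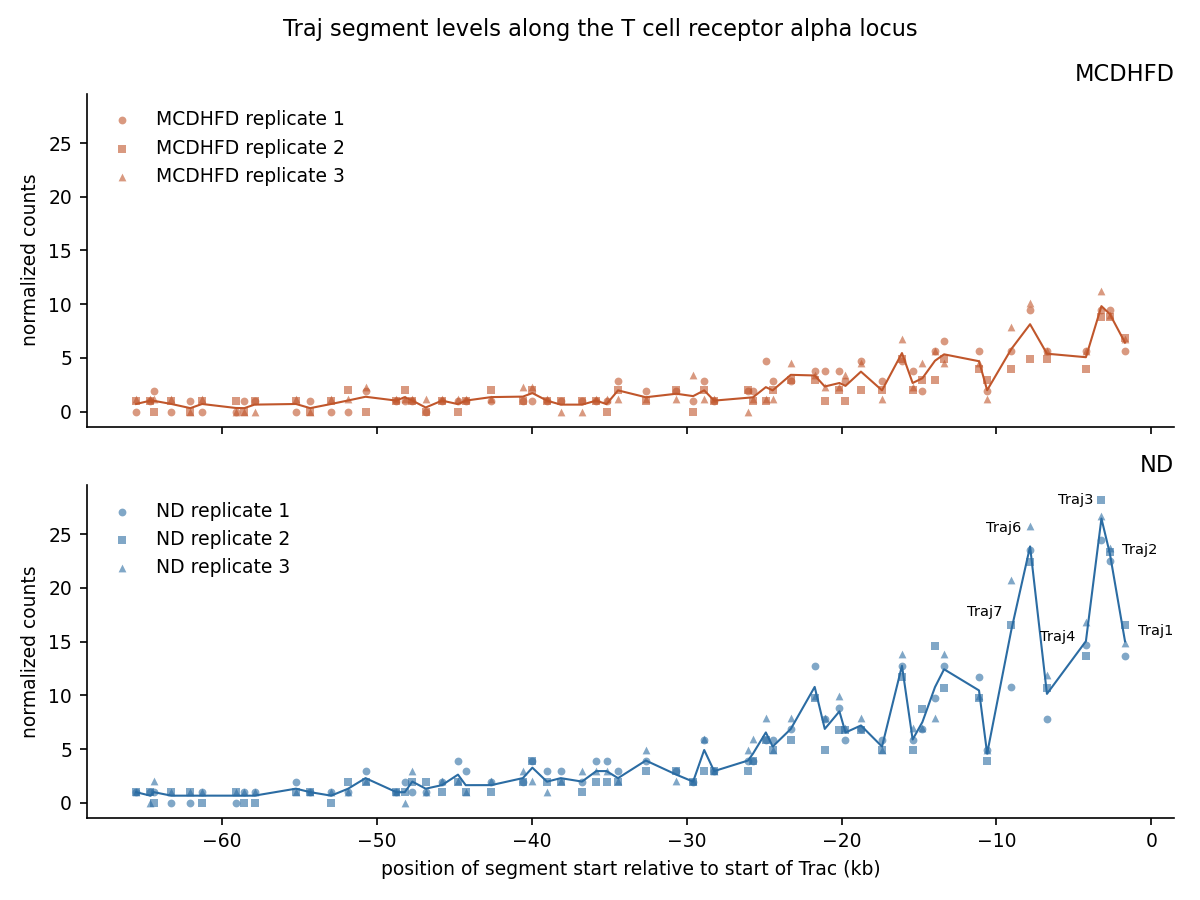
Normalized counts of each of the 60 Traj segments against the position of its start relative to the start of Trac in kb, with MCDHFD above and ND below; points are libraries and lines join the means of 3. In both diets the level climbs toward Trac, to 9.81 (MCDHFD) and 26.5 (ND) at Traj3, and Traj6 stands above both of its neighbours in the means.

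The climb was not smooth. Traj6 had 9.41, 4.91 and 10.1 normalized counts in MCDHFD, against 23.5, 22.4 and 25.7 in ND. Its neighbour Traj5, nearer to Trac and of the same 62 bases, had 5.65, 4.91 and 5.59 in MCDHFD, against 7.83, 10.7 and 11.9 in ND. Traj6 was thus above Traj5 in 5 of the 6 libraries and equal to it in MCDHFD replicate 2, and it was above Traj7 and Traj4 in all 6.

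Segments that are annotated as pseudogenes or lack the motif were counted at levels like those of their neighbours. Traj1, a pseudogene of 29 bases, had the highest level per length of all 60 segments, 22.1 normalized counts per 100 bases in MCDHFD and 51.8 in ND. Traj3, listed as a gene but without the motif in frame, had the highest level as counted. Within the 3′ part, the 7 segments without the motif had a median of 7.81 per 100 bases in MCDHFD and 17.3 in ND, and the 13 with it had 8.08 in MCDHFD and 18.6 in ND. The 9 pseudogenes together took 10.6% ± 2.45 of the Traj sum in MCDHFD and 9.66% ± 0.329 in ND (SD, n = 3 each), with overlap between the diets.

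**Figure D3:**
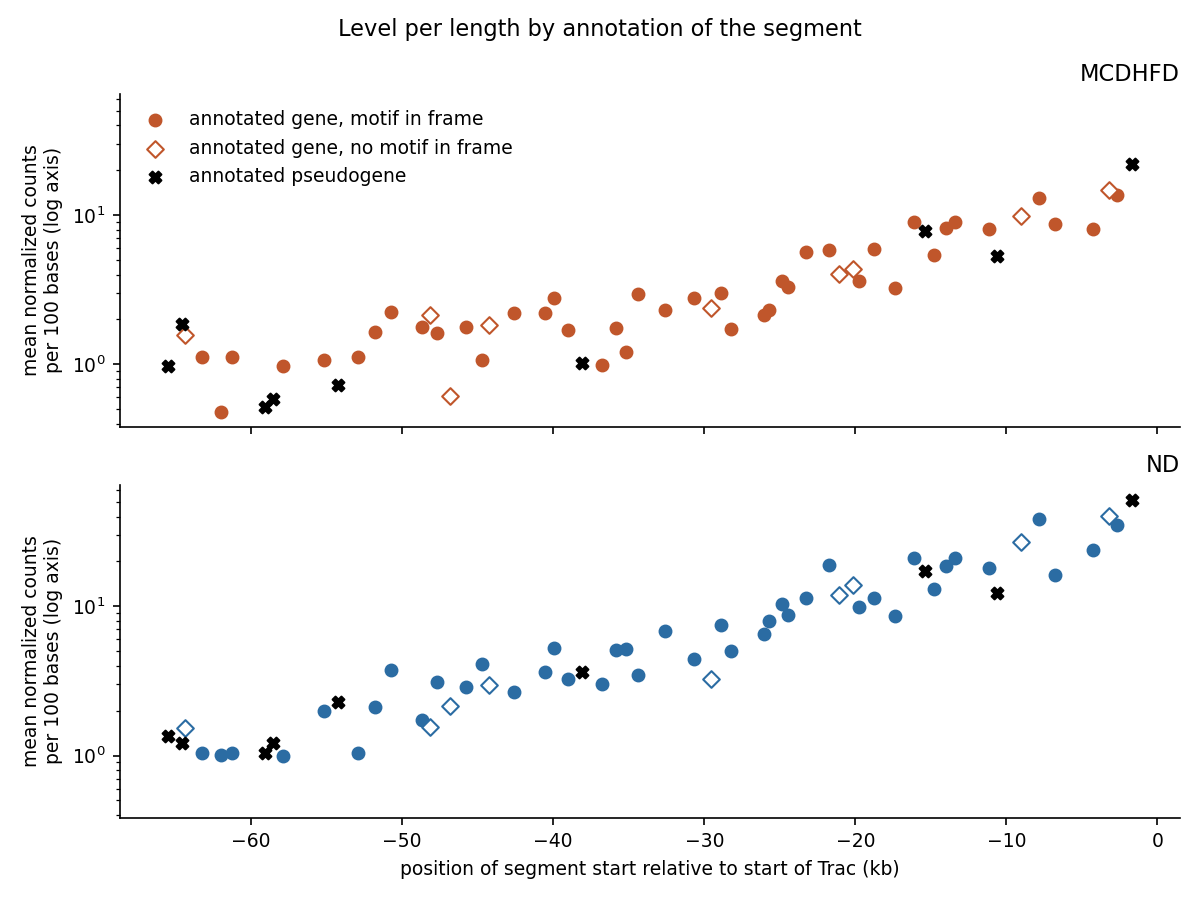
Mean normalized counts per 100 bases (log axis) of each Traj segment against its position relative to Trac in kb, with MCDHFD above and ND below; marker shapes separate genes with the motif, genes without it and pseudogenes. All 3 kinds climb toward Trac, and the pseudogene Traj1, the shortest segment, at the right end, is the highest at 22.1 (MCDHFD) and 51.8 (ND).

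Only 6 segments, all in the 3′ part, averaged 10 or more across the libraries and so entered the main test, a limma fit over 13430 genes on the log2(value + 1) scale. All 6 fell in MCDHFD at an adjusted p under 0.05, where 28.1% of all genes tested were called lower and 30.3% higher. All 6 passed the filter only through ND: their means were 5.06 to 9.81 in MCDHFD, each under 10, and 15.03 to 26.5 in ND. The selection therefore partly sets that direction, and the count of 6 lower is a description of these segments, not support for a fall of the group. Their log2 fold changes ran from -1.50 to -1.11. The 54 others lie below the filter. The tested segment of lowest mean was Traj4, at 10.1, and the untested one of highest mean was Traj15, at 9.10.

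Traj3 had 9.41, 8.85 and 11.2 normalized counts in MCDHFD, against 24.5, 28.2 and 26.7 in ND (log2 fold change -1.35, SE 0.28, limma adjusted p = 0.00282). Traj2 had 9.41, 8.85 and 8.95 in MCDHFD, against 22.5, 23.3 and 23.8 in ND (log2 fold change -1.27, SE 0.28, limma adjusted p = 0.00416). In both segments every MCDHFD library was under 12 and every ND library above 22. For Traj6, with the values given above, the log2 fold change was -1.50 (SE 0.35, limma adjusted p = 0.00544).

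Traj4 had 5.65, 3.93 and 5.59 normalized counts in MCDHFD, against 14.7, 13.6 and 16.8 in ND (log2 fold change -1.41, limma adjusted p = 0.00851). Traj1 had 5.65, 6.88 and 6.71 in MCDHFD, against 13.7, 16.5 and 14.8 in ND (log2 fold change -1.11, limma adjusted p = 0.0187). Traj7 had 5.65, 3.93 and 7.83 in MCDHFD, against 10.8, 16.5 and 20.8 in ND, the widest spread of the 6 (log2 fold change -1.32, limma adjusted p = 0.0219). None of the 6 overlapped between the diets, where 32.3% of the genes tested were lower in MCDHFD without overlap and 33.2% higher. The call of Traj7 ended without MCDHFD replicate 2, ND replicate 2 or ND replicate 3 (adjusted p = 0.0612, 0.0638 and 0.0783), and that of Traj1 without ND replicate 2 (adjusted p = 0.0647). On whole reads recovered for 5 libraries, edgeR called 5 of the 6, without Traj7, and DESeq2 called 3, without Traj7, Traj4 and Traj1.

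Across all 60 segments, 53 had a lower mean in MCDHFD. In 34 the diets did not overlap, all lower in MCDHFD, where 25.5% of all rows of the table were lower without overlap and 25.9% higher. These 34 were 2 of 20 in the 5′ part, 12 of 20 in the middle and 20 of 20 in the 3′ part. With no filter on low values, the limma fit called 11 of 60 lower and none higher (20.3% and 22.3% of all rows). Besides the 6 above, these were Traj11, Traj15, Traj19 and Traj21 of the 3′ part and Traj25 of the middle part, with log2 fold changes from -1.43 for Traj21 to -1.09 for Traj11, and adjusted p from 0.0137 for Traj21 to 0.0467 for Traj25. With a mean of at least 5, a filter added after seeing the data, 11 of 16 were called lower (26.8% of all genes so tested), and the same limit applies to that filter. Fold changes of low segments are pulled toward 0 by the pseudocount.

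**Figure D4:**
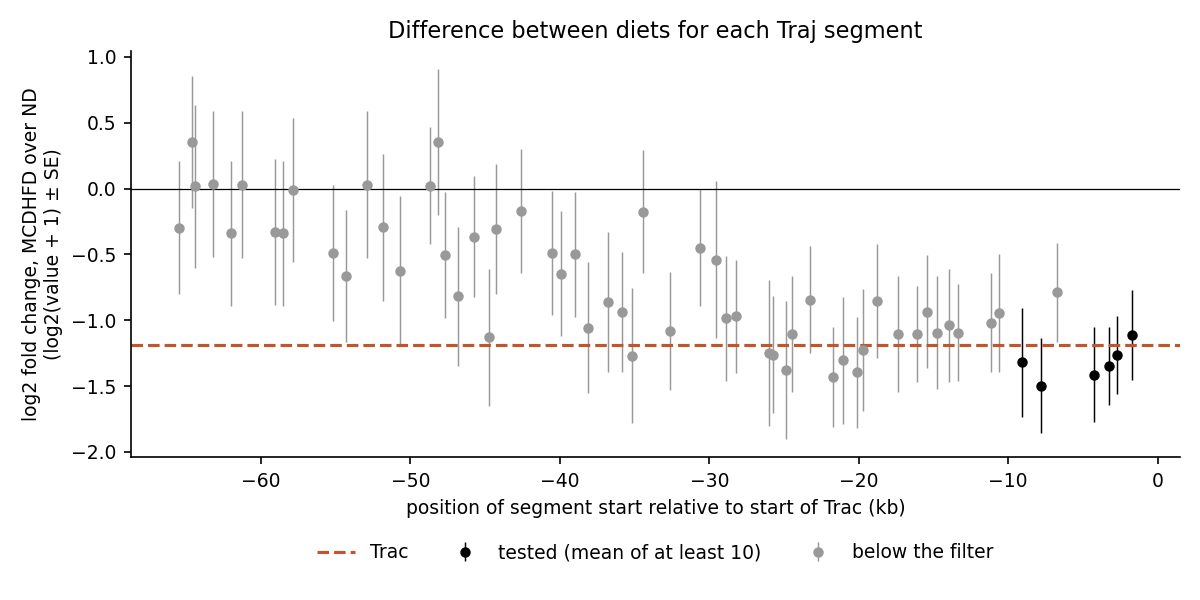
Log2 fold change of MCDHFD over ND on the log2(value + 1) scale, with its SE from the limma fit with no filter, for each Traj segment against its position relative to Trac in kb; black points are the 6 tested segments and the dashed line is Trac. The tested segments lie between -1.50 and -1.11, around the value of Trac, -1.19, and those of the 5′ part lie between -1.13 (Traj42) and 0.35 (Traj46).

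Usage asks whether a segment took another share of the Traj total. With each library scaled to the same Traj sum, limma called none of the 6 tested segments, nor any of the 60 with no filter, and none had an unadjusted p under 0.05 in either fit. After that scaling the genes tested had a median log2 fold change of 1.25, and 87.3% of them were called higher and 2.35% lower (66.1% and 2.14% with no filter). Traj3 took 7.12% ± 0.726 of the Traj sum in MCDHFD and 8.08% ± 0.881 in ND, a log2 difference in share of -0.17 with a 95% interval of -0.99 to 0.65. Traj6 took 5.76% ± 1.44 in MCDHFD and 7.26% ± 0.129 in ND (log2 difference -0.34, interval -1.22 to 0.53), and Traj1 took 4.71% ± 1.01 in MCDHFD and 4.59% ± 0.639 in ND (0.02, interval -0.96 to 1.01). Over the 6 segments the lowest limit of these intervals was -1.33 (Traj4) and the highest 1.01 (Traj1). A difference in the share of a segment that lies within its own interval is thus not excluded.

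By part of the locus, the shares shifted slightly away from Trac in MCDHFD. The 5′ part held 8.81%, 12.4% and 12.2% of the Traj sum in the MCDHFD libraries, against 7.46%, 6.27% and 6.84% in the ND libraries. The diets did not overlap, with means of 11.1% ± 2.02 in MCDHFD and 6.86% ± 0.597 in ND (SD, n = 3 each). The middle part held 21.1% ± 2.41 in MCDHFD and 20.3% ± 2.27 in ND, with overlap. The 3′ part held 67.8% ± 2.20 in MCDHFD and 72.9% ± 2.86 in ND, without overlap, since its highest MCDHFD share was 69.5% and its lowest ND share 70.1%. The level-weighted mean distance from Trac was 19.5 ± 0.594 kb in MCDHFD and 17.3 ± 1.02 kb in ND.

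**Figure D5:**
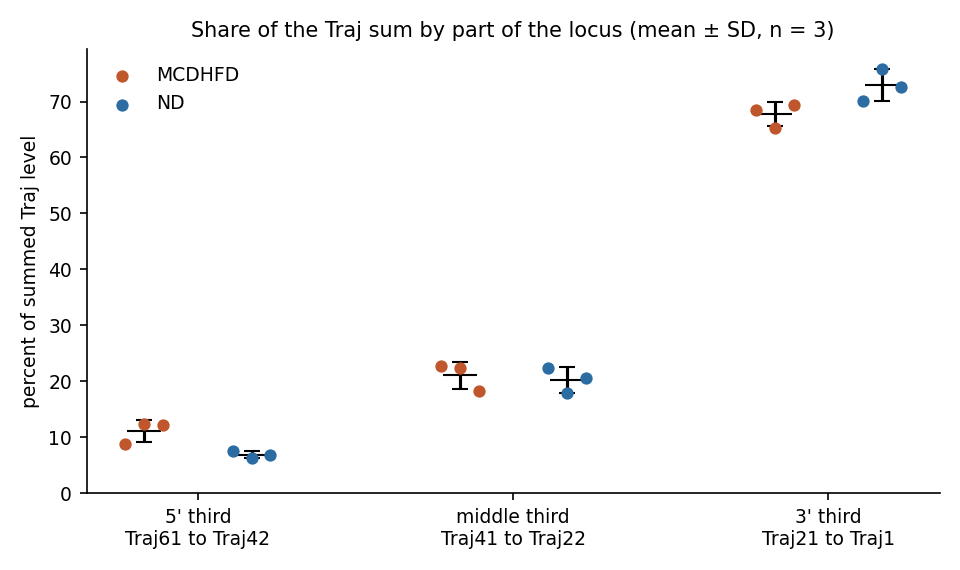
Percent of the summed Traj level in the 5′, middle and 3′ parts of the locus for MCDHFD (left of each pair) and ND libraries; points are libraries and bars are mean ± SD of 3. The 5′ share is higher in every MCDHFD library (8.81% to 12.4%) than in any ND library (6.27% to 7.46%).

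The 5′ part rests on the smallest values of the table. As whole units (a value divided by what 1 read is worth in its library), its 20 segments gave 20 zeros, 35 ones and 5 larger values in MCDHFD, against 10 zeros, 35 ones and 15 larger values in ND, with 4 as the highest. Its summed level was 15.3 ± 2.40 normalized counts in MCDHFD and 22.6 ± 2.71 in ND, a log2 ratio of -0.56, beside -1.20 for the middle and -1.35 for the 3′ part. The part that this lower limit of the scale plays in the 5′ share was not tested. Whole units of the segments also varied less between libraries of a diet than independent reads would, with a median chi-square per degree of freedom of 0.24 over the 32 segments with a mean of 2 to 40 units, so no counting interval is given.

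Both invariant segments lay below the filter. Traj18 had 2.82, 0.983 and 3.36 normalized counts in MCDHFD, against 5.87, 6.81 and 6.93 in ND, and was lower in all MCDHFD libraries without passing in the fit with no filter (log2 fold change -1.23, limma adjusted p = 0.0595). Traj33 had 0.941, 0 and 1.12 in MCDHFD, against 3.92, 1.95 and 2.97 in ND (log2 fold change -1.27, limma adjusted p = 0.0755 in the same fit). Their shares of the Traj sum did not pass the usage test with no filter (Traj18, limma adjusted p = 0.664; Traj33, 0.368), with 95% intervals of the log2 difference from -1.41 to 0.85 for Traj18 and from -2.00 to 0.65 for Traj33. Of the list of genes tied to such cells, 4 of 8 tested rose. Zbtb16, the transcription factor PLZF of innate-like T cells and of some other blood cells, rose to 179 ± 13.3 normalized counts in MCDHFD, against 16.99 ± 6.49 in ND. Trav1, the variable segment of MAIT receptors, fell (log2 fold change -0.84, limma adjusted p = 0.0455), but its call held without 1 library only where that was MCDHFD replicate 1 (adjusted p of 0.0757 to 0.138 otherwise), and it ended with the replicate block (adjusted p = 0.0857).

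The other parts of the receptor fell with the joining segments. Of the receptor complex list, 10 of 11 tested genes fell and none rose, beside 28.1% lower and 30.3% higher among all genes tested (median log2 fold change -1.04), among them Cd3g (-1.49), a signalling chain, Cd8a (-1.39), the co-receptor, and Trbc2 (-1.04), a beta constant region. Trdc, the delta constant region just upstream of the Traj row, had a log2 fold change of -1.16 (limma adjusted p = 0.00247). Dad1, the gene downstream of Trac, was chosen after its values were seen: it had 1059 ± 78.8 normalized counts in MCDHFD and 1088 ± 53.2 in ND and did not pass (limma adjusted p = 0.656). Of the recombination list, 6 of 13 tested genes fell and none rose, against the same background, with Prkdc (-1.11), a DNA repair kinase that acts at the cut ends, and Dntt (-0.89), which adds bases at the joint. The call of Dntt ended without MCDHFD replicate 1, MCDHFD replicate 2, ND replicate 1 or ND replicate 2 (limma adjusted p of 0.0561 to 0.0984). Rag1 was at 0 in all MCDHFD libraries and at 0.975 ± 0.973 normalized counts in ND.

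Markers of T cells and of other cell types moved with these genes, and their part in the result was not tested beyond the scalings below. Among all genes tested, 28.1% were called lower and 30.3% higher. All 12 T cell markers fell, and their summed level was 35738 to 39411 normalized counts in MCDHFD and 80665 to 82885 in ND. All 12 macrophage markers rose (212513 to 261381 in MCDHFD, 47193 to 56637 in ND), as did all 7 tested neutrophil and all 8 erythroid markers. The neutrophil marker Ly6g lay below the filter, at 4.40 ± 1.54 normalized counts in MCDHFD and 8.82 ± 10.2 in ND, with overlap. All 9 B cell markers fell (1343 to 1751 in MCDHFD, 5595 to 7208 in ND), and no listed marker of these types was at 0 throughout. The macrophage markers thus summed to more than the T cell markers in every MCDHFD library and to less in every ND library, although all libraries are labelled CD8+ T cells. Of the tested dendritic cell markers, 6 of 7 fell and 1 rose, and 2 of 3 NK cell markers fell. Of the plasma cell markers 3 of 5 rose. The 1 tested gamma delta T cell marker fell, and of 2 tested thymocyte markers 1 fell and 1 rose. With libraries scaled to the same mean log2 level of the T cell markers, limma called none of the 6 segments (log2 fold changes -0.42 to -0.06), and with libraries scaled to the same Trac none either (-0.40 to -0.04), and in neither fit had a segment an unadjusted p under 0.05. The Traj sum was 0.373% ± 0.0369 of the summed T cell markers in MCDHFD and 0.402% ± 0.0257 in ND (SD, n = 3 each), with overlap.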

How the data were processed

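RNA from splenic CD8+ T cells was sequenced with a whole-RNA or an mRNA library kit, per the labels' protocols, which do not say which library had which kit. The deposited table holds 1 value per Ensembl gene and library, a signal that the authors name a count, per the file headers, and a normalized one by its title. That it is a read count divided by a factor per library was read from the values. The build is mm10, per the submitters' processing notes; aligner, counter, strand setting and read length are unknown here. In each library 100% of values were whole multiples of the smallest value above 0 (tolerance 0.01), which gave 13188812 to 15482458 reads. ND replicate 3 was left out of the count tests after a check of its unit refused it. In its values 1 read is worth 0.990, beside 0.979 in ND replicate 1 and 0.973 in ND replicate 2, which were kept. Symbols matched 19202 of 19323 identifiers, and positions come from GENCODE M21.

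Diets were compared with limma 3.58.1 (R 4.3.3), its variance trend on, using log2(value + 1), diet as the only term, over 13430 genes with a mean of at least 10, with Benjamini-Hochberg adjustment at 0.05. With this trend, the SE and interval of a segment draw in part on the spread of other genes of similar level. Usage was tested in the same fit after scaling each library to an equal Traj sum. edgeR 4.0.16 and DESeq2 1.42.0 were run on the recovered reads of 5 libraries. The fit was checked on simulated counts in which few genes changed. In these data many did, so that check does not bear on the calls here. Sums, shares and parts of the locus got no test. Libraries of 1 diet differed by more than sampling noise (chi-square per degree of freedom of 6.11 to 11.5). Named segments are the 6 of highest mean, the highest and lowest fold changes of each fit, Traj18 and Traj33; other genes come from 3 short lists, by size of change or level. The members and lists were chosen with earlier results of these data known. Alternatives were pseudocount, filter, scaling, a replicate block, count tests and leaving out each library. Trav11 and some other listed genes were not analysed here, and 1 listed gene is not reported here.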

Additional observations from a re-analysis of the deposited data

How the results depend on the processing

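The 6 tested segments were all called lower with a pseudocount of 5, TMM scaling, quantile scaling and the replicate block. Leaving out 1 library gave 4 to 6 called. With no filter 11 of 60 were called, with a mean of at least 5 (added after seeing the data) 11 of 16, with DESeq2 3 of 6, and with libraries scaled to equal Trac or to equal T cell markers 0 of 6 each. Those 2 scalings take out the shared fall by construction; for DESeq2 the cause was not tested. No segment was called in the usage test under any alternative run (0 throughout, also without any 1 library). A filter at a mean of 50 left no segment. The log2 ratio of the Traj sum, -1.25, was -1.43 over the 6 tested segments alone and from -1.31 to -1.15 without 1 library. Its ratio to Trac, a log2 ratio of -0.06, was -0.25 over those 6 and from -0.14 to -0.01 without 1 library. Those 6 passed the filter only through ND, so their selection partly sets -1.43 and -0.25, which are no check of the group. The difference of the 5′ share, 4.28 percentage points, was 3.65 to 5.45 without 1 library, and could not be computed over the 6 tested segments, which all lie in the 3′ part. The direction of single log2 fold changes turned as follows. With equal Trac they were 0.14 for Trbc2, 0.0826 for Prkdc, 0.28 for Dntt, 0.26 for Trav1, 0.0173 for Trdc and 1.15 for Dad1. With equal T cell markers they were 0.12 for Trbc2, 0.0575 for Prkdc, 0.25 for Dntt, 0.23 for Trav1 and 1.12 for Dad1. Without 1 library, Dad1 ran from -0.0992 to 0.00241, above 0 without MCDHFD replicate 1. The log2 difference in the share of Traj1, 0.02, ran from -0.12 to 0.16 without 1 library, and was -0.12 without MCDHFD replicate 2, -0.04 without ND replicate 1 and -0.02 without ND replicate 3. Same-numbered libraries of the diets deviated together only weakly (correlations of 0.01 to 0.06), although 5 of 6 libraries correlated best with their own number. The numbers were not taken as pairs, and a weak pairing is not excluded. The replicate block left the count at 6 lower and the usage count at 0.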

Other observations

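Low spread between libraries was shared by other short features. Among genes with a mean of 2 to 40 whole units, the 32 Traj segments had a median chi-square per degree of freedom of 0.24 within diets, and a mean of 0.33. For independent reads the mean would be 1, with single values on both sides of it, and 30 of the segments were below 1. The 22 other annotated genes with under 100 exon bases had a median of 0.29, and 13 beta joining segments (Trbj) had 0.42. The 60 alpha variable segments in this range, which are longer, had 1.04, and the 4376 genes with at least 400 exon bases had 1.55. The count tests assume at least the spread of independent reads.

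The beta joining segments fell as well, with a summed level of 262 ± 32.6 normalized counts in MCDHFD and 504 ± 18.4 in ND (SD, n = 3 each), a log2 ratio of -0.94 without overlap.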
